A study of Homo sapiens with 9 samples.

Results

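The 6 GATA transcription factors, GATA1 to GATA6, were followed in RKO cells by every probe that the array files name after them, 9 probes in all, among 36337 gene names and 50599 probes. GATA6 and GATA4 were the members with signal in control cells. GATA5 gave no signal in control cells and came above background on 1 of 2 arrays when UHRF1 depletion and trichostatin A (TSA) were combined. GATA2, GATA3 and GATA5 were all well above background on the array of cells given 5-aza-2'-deoxycytidine (5-aza-dC), and GATA1 was above background on no array. In the combination of both treatments GATA6 fell by 0.37 on the log2 scale, and 1 of the 4 GATA4 probes rose by 0.59, calls that were lost with some other ways of processing.

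RKO is an established colorectal cancer cell line, and the arrays measured total RNA in 1 colour. Cells were transfected for 72 h with a control siRNA (siCONT) or with an siRNA against UHRF1 (siUHRF1), the factor that guides maintenance DNA methylation, and were then given mock (ethanol) or 300 nM TSA, an inhibitor of histone deacetylases, for 24 h. The 4 groups of these cells, siCONT and siUHRF1 (both given mock) and siCONT + TSA and siUHRF1 + TSA, had 2 arrays each. Replicate 1 carried siUHRF1-1 and replicate 2 siUHRF1-2, so each siRNA had 1 array per condition. A further array came from cells without siRNA given 1 µM 5-aza-dC, an inhibitor of DNA methylation, for 72 h. The labels do not say whether replicates were separate cultures, so p-values measure the spread between these samples, which may be technical. In bulk RNA, fewer cells with a transcript and less of it per cell cannot be told apart.

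The 8 siRNA arrays shared 1 slide and 1 scan. Mock arrays lay in row 1 and TSA arrays in row 2, siCONT arrays in columns 1 and 2 and siUHRF1 arrays in columns 3 and 4, so position and treatment cannot be told apart. The array of 5-aza-dC had a slide and a scan of its own, and its treatment, slide, scan and lack of transfection cannot be told apart. The 75th percentile of its signal was 821.6, against 245.3 to 337.9 on the siRNA arrays, and 54.9% of its probes were well above background, against 46.8% to 49.6%. Signals below are linear spot intensities after the scanner software subtracted the background, and are not scaled between arrays. Levels and fold changes on the log2 scale are relative to each array's own 75th percentile. No spot was saturated. With so few arrays in a group, their number sets how precise a value can be.

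UHRF1 itself checked the labels. Its signal was 1816 and 1837 in siCONT, 433.4 and 292.4 in siUHRF1, 1793 and 1860 in siCONT + TSA and 222.9 and 178.1 in siUHRF1 + TSA, so the depleted arrays lay below all others. The log2 fold change of UHRF1 was -2.47 in siUHRF1 and -3.17 in siUHRF1 + TSA, each against siCONT (adjusted p = 0.00238 and 0.000113 from limma). Among epithelial and colonic markers, KRT8, KRT18, CDX1 and CDX2 were well above background on all 8 siRNA arrays. EPCAM and KRT20 were above it on 1 of the 8, and VIL1 and CDH1 on none. Of markers of other cells, CDH5 and COL1A1 were above background on all 8, PTPRC on 5, CD14 on 3, DCN on 2, and CD3E and PECAM1 on none.

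GATA factors are zinc finger proteins that bind the DNA motif after which they are named, and each can switch on the genes of a lineage. GATA1, GATA2 and GATA3 are best known from blood: GATA1 from red cells and platelets, GATA2 from blood stem cells and GATA3 from T cells and also luminal breast epithelium. GATA4, GATA5 and GATA6 act in heart, gut and gonads, and silencing of GATA4 and GATA5 by promoter methylation is well known in colorectal cancer.

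Each measurement of a GATA gene rests on 1 spot of a 60-base probe, which the array files place on GRCh37, and for the 5 members with a single probe its first 30 bases are printed here so that the piece of transcript behind each value can be seen. The GATA2 probe covers chr3:128199547-128199606 on the minus strand, GATA3 chr10:8117072-8117131 on the plus strand, GATA5 chr20:61038572-61038631 on the minus strand and GATA6 chr18:19781793-19781852 on the plus strand. Each of these is 1 unbroken stretch of the transcript given for it, starting at its base 2133, 2977, 2516 and 3059. The GATA1 probe spans 763 bases of chromosome X, chrX:48650853-48651615 on the plus strand, so that it reads across an intron.
GATA1: tcatccggcccaagaagcgcctgattgtca
GATA2: ctttatgtagagaaaaggaggggacgggac
GATA3: cgtgttctgtgttagtgatcactgccttta
GATA5: cccacttctatgcgatgtcatcttttctaa
GATA6: ggtatctgtaaacactctgatgaagtctgt

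Sequence before the start of transcription is shown for the genes whose silence or activity the results turn on, with each CG, the dinucleotide that DNA methylation acts on, in capitals. The sequences are RefSeq's, on GRCh38.p14, and cover the 250 bases before a start. A sequence was matched for GATA1, GATA2, GATA3 and GATA6. The first line lies before the GATA2 start on the minus strand at chr3:128493202-128493451, and the last before the GATA6 start on the plus strand at chr18:22169339-22169588. The line between them is the stretch of 191 bases at chr10:8053450-8053640 that separates a start of GATA3, on the plus strand, from a start of its antisense RNA GATA3-AS1, on the minus strand.
GATA2: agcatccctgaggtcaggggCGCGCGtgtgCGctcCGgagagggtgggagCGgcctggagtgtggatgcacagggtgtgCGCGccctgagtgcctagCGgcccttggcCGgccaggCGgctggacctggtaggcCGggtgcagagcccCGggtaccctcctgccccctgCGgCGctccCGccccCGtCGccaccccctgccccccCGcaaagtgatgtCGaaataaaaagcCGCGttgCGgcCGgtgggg
GATA3: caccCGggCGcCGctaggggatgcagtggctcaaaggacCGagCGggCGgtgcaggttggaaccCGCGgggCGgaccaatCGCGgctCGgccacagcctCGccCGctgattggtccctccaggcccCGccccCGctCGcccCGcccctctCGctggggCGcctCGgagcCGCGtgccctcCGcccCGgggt
GATA6: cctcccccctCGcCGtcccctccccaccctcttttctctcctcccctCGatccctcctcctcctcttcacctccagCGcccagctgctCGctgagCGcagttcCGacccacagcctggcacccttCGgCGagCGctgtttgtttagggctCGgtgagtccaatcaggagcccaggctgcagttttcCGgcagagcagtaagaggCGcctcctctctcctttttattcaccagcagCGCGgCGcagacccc

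The GATA2 window held 24 CG, the GATA3 stretch 25 and the GATA6 window 16. Over 35116 windows of 27305 genes the median was 11 CG in 250 bases, with quartiles of 3 and 23. The 2 windows of GATA2 held 18 and 24 CG, the 6 of GATA3 between 4 and 30, and the only one of GATA1 held 4. The GATA2 window printed was picked as the one with the most CG. The GATA3 stretch lies within that gene's window of 30 CG and has 191 bases, not 250. The letters GATA, searched on both strands as GATA and TATC, occurred in 2 of the 6 GATA3 windows, in no window of GATA1, GATA2 or GATA6, and in 45.6% of all windows. These are counts of letters, and methylation was not measured on these arrays.

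GATA6, a factor of gut and heart, was well above background on all 9 arrays. Its signal was 434.2 and 392.6 in siCONT, 423.7 and 348.7 in siUHRF1, 290.9 and 308.4 in siCONT + TSA, 320.1 and 307 in siUHRF1 + TSA and 1144 with 5-aza-dC. On the log2 scale its level was 0.54 ± 0.11 (SD, n = 2) in siCONT, 0.33 ± 0.001 in siUHRF1, 0.26 ± 0.018 in siCONT + TSA and 0.17 ± 0.014 in siUHRF1 + TSA. On this scale every treated siRNA array thus lay below both siCONT arrays, while in unscaled signal siUHRF1 replicate 1 overlapped them.

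The fall of GATA6 passed the test only in the combination. Its log2 fold change there was -0.37, with a standard error of 0.095 and a limma adjusted p of 0.0376. With TSA alone the log2 fold change was -0.28 (adjusted p = 0.111 from limma) and with UHRF1 depletion alone -0.22 (95% interval -0.45 to 0.015, adjusted p = 0.59). Between neighbours in this order limma called no difference: siUHRF1 + TSA against siCONT + TSA gave -0.085 (adjusted p = 0.708) and against siUHRF1 -0.15 (adjusted p = 0.313). On this scale both arrays of siUHRF1 + TSA nevertheless lay below those of either group, and the methods' t-test called both differences before adjustment and neither after it. Replicate number marks a shared siRNA only in the UHRF1-depleted groups. With it as a block in all groups, the adjusted p of the fall in the combination was 0.0551 from limma. It was 0.276 with normexp background correction, 0.101 with scaling by spike-in probes, 0.0823 with no filter on dim probes and 0.0747 with only the arrays compared. The call in the combination was also lost without either siCONT array, either siCONT + TSA array or either siUHRF1 + TSA array, with adjusted p between 0.0865 and 0.248 from limma, while the value stayed between -0.45 and -0.29.

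**Figure D1:**
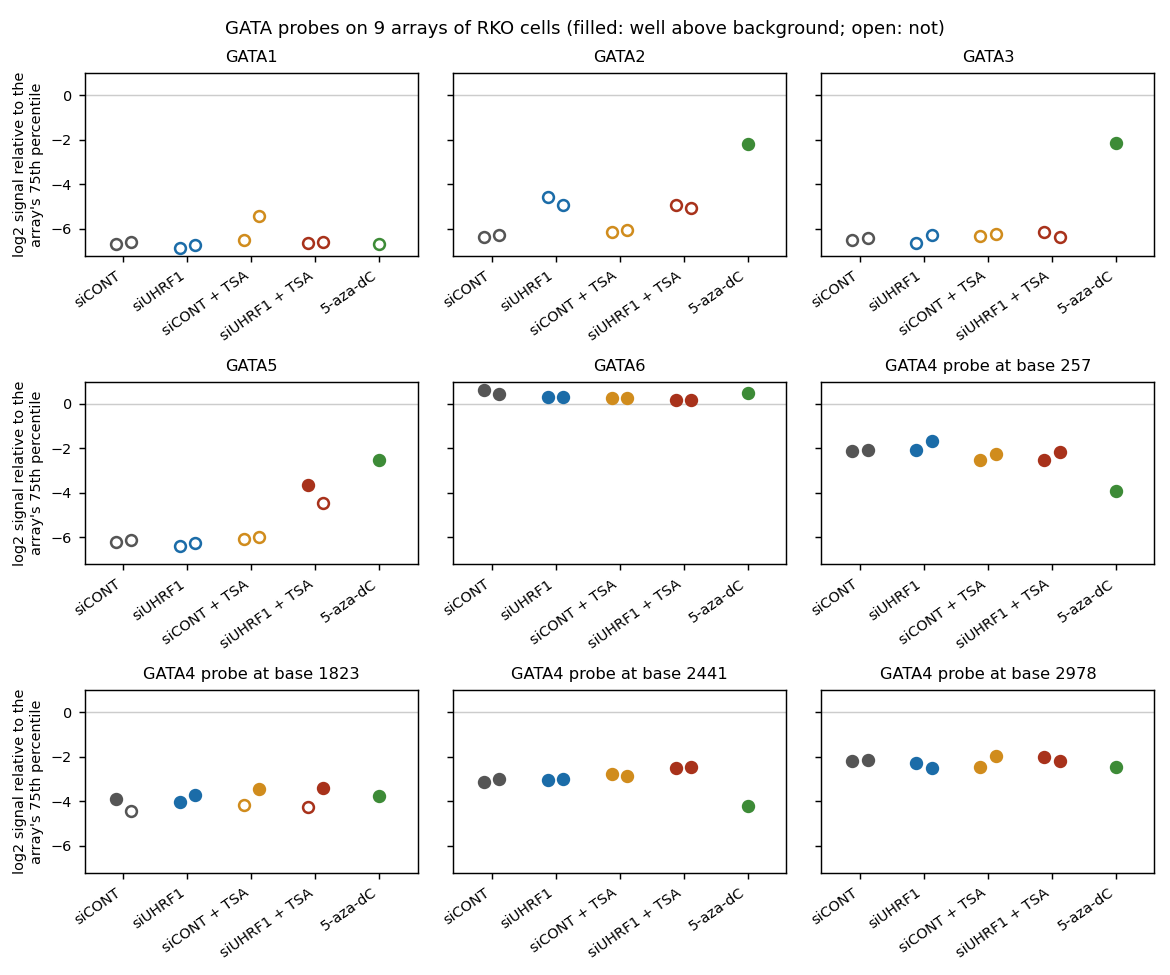
Log2 signal of the 9 GATA probes relative to each array's 75th percentile (vertical axis) in the 5 groups (horizontal axis), with 1 point per array, filled where the probe was well above background and open where it was not. GATA6 is filled on all 9 arrays, GATA2 and GATA3 are filled on the 5-aza-dC array alone, GATA5 on that array and on 1 siUHRF1 + TSA array, and GATA1 on none.

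GATA4, the partner of GATA6 in endoderm and heart, was read by 4 probes on GRCh37 chromosome 8. The probe starting at base 257 of its Ensembl transcript lies at the 5′ side of the locus (chr8:11558173-11558232). The other three start at bases 1823, 2441 and 2978 of the RefSeq transcript, at chr8:11615925-11615984, chr8:11616543-11616602 and chr8:11617080-11617139, as far apart in the genome as on the transcript. The probes at bases 257, 2441 and 2978 were well above background on all 9 arrays and the probe at base 1823 on 6 of 9.

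The GATA4 probe at base 2441 gave signals of 32.48 and 35.19 in siCONT, 40.58 and 35.09 in siUHRF1, 35.68 and 35.36 in siCONT + TSA, and 50.02 and 49.68 in siUHRF1 + TSA. Both arrays of the combination lay above the other 6. Its log2 level was -3.07 ± 0.072 (SD, n = 2) in siCONT, -3.02 ± 0.052 in siUHRF1, -2.82 ± 0.051 in siCONT + TSA and -2.48 ± 0.021 in siUHRF1 + TSA. It rose by 0.59 relative to siCONT, with a standard error of 0.093 (limma adjusted p = 0.00822), and by 0.54 against siUHRF1 (adjusted p = 0.0169). Against siCONT + TSA the difference was 0.34 (adjusted p = 0.132), with TSA alone 0.25 (adjusted p = 0.139) and with UHRF1 depletion alone 0.047 (95% interval -0.18 to 0.27, adjusted p = 0.943). Without siCONT replicate 1 or 2 the adjusted p against siCONT was 0.0808 or 0.0559, and against siUHRF1 it was 0.0506 without either of them, 0.0508 without either siCONT + TSA array, and 0.0532 and 0.0523 without siUHRF1 + TSA replicate 1 and 2. Both calls also ended with normexp, where the changes were 0.29 against siCONT and 0.30 against siUHRF1 (limma adjusted p = 0.478 and 0.521), and with spike-in scaling, where they were 0.43 and 0.37 (limma adjusted p = 0.132 and 0.218). The call against siUHRF1 ended as well with only the arrays compared (adjusted p = 0.166 from limma) and with a trended and robust prior (adjusted p = 0.0621 from limma).

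The other 3 GATA4 probes were not called. The probe at base 257 read 64.57 and 68.34 in siCONT, 80.05 and 88.17 in siUHRF1, 42.82 and 52.89 in siCONT + TSA and 49.59 and 61.44 in siUHRF1 + TSA, so both TSA groups lay below both mock groups in signal. After scaling, its log2 fold change in the combination was -0.24 against siCONT (95% interval -0.70 to 0.22, adjusted p = 0.407 from limma) and -0.47 against siUHRF1 (adjusted p = 0.15). The second of these was called with spike-in scaling, at -0.64 (adjusted p = 0.0459 from limma), and shrank to -0.25 without siUHRF1 replicate 2 and to -0.29 without siUHRF1 + TSA replicate 1. The probe at base 2978, with signals from 45.12 to 70.57 on the siRNA arrays and overlapping groups, had a log2 fold change of 0.055 in the combination against siCONT (95% interval -0.39 to 0.50, adjusted p = 0.857). The probe at base 1823, near background with signals from 12.91 to 26.28 on these arrays, had one of 0.35 (95% interval -0.58 to 1.28, adjusted p = 0.551). Within GATA4 the fold changes of the combination thus had both signs, and probes were not tested against each other.

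Across the 5 GATA probes that could be tested on the siRNA arrays, which are GATA6 and the 4 of GATA4, limma called 0 in siUHRF1 against siCONT, where it called 0.557% of 23703 probes. It called 0 in siCONT + TSA against siCONT (10.4% of all probes), 2 in siUHRF1 + TSA against siCONT (23.2%), 0 in siUHRF1 + TSA against siCONT + TSA (3.54%) and 1 in siUHRF1 + TSA against siUHRF1 (15.5%). At an unadjusted p below 0.05 the counts were 0, 2, 2, 1 and 2 of 5, where limma passed 8.91%, 28.9%, 37.9%, 17.4% and 32.7% of all probes. By the methods' t-test without adjustment they were 0, 0, 2, 2 and 2, against 7.79%, 41.4%, 29.8%, 15.3% and 14.1% of all probes. With Benjamini-Hochberg adjustment that test called 0 GATA probes in each comparison, and 0%, 18.3%, 1.04%, 0% and 0.00422% of all probes. When the effect of UHRF1 depletion under TSA was tested against that under mock, limma called 0 of 5 (0.38% of all probes), and 0 at an unadjusted p below 0.05 (4.92%). With 5 probes, counts this small say nothing particular about the family. The median log2 fold change of the 5 probes was 0.055 in the combination, and that of all probes 0.053. The comparisons with siCONT share its 2 arrays.

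**Figure D2:**
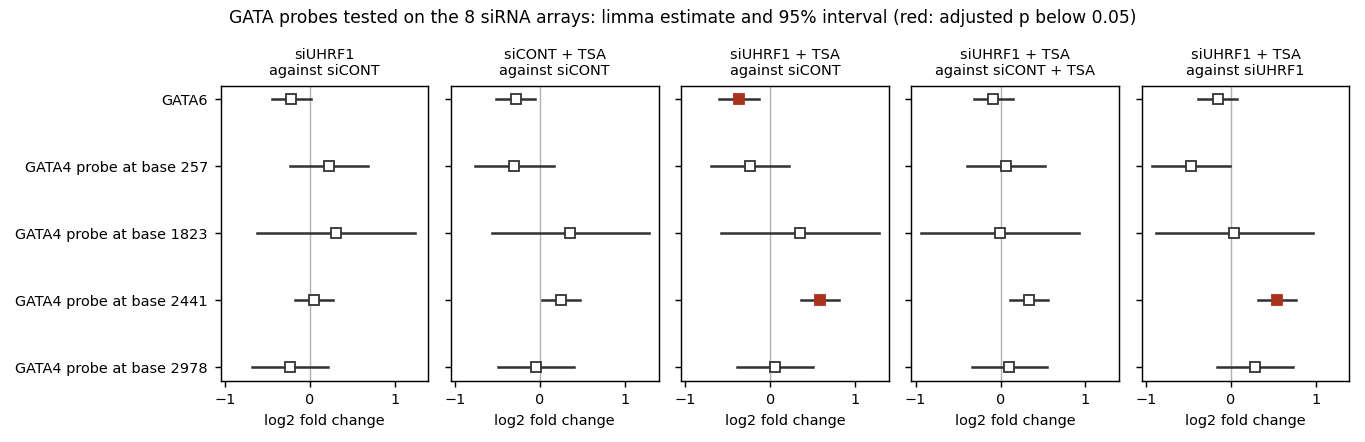
Log2 fold change (horizontal axis) of the 5 tested GATA probes (vertical axis) in 5 comparisons of the siRNA arrays, with squares for the limma estimate, lines for its 95% interval and red fill for an adjusted p below 0.05. GATA6 at -0.37 and the GATA4 probe at base 2441 at 0.59 are red in siUHRF1 + TSA against siCONT, and the intervals of the other 3 GATA4 probes include 0 there.

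GATA5, a factor of endoderm and heart valves, was not detected in the control cells. Its signal was 3.727 and 4.095 in siCONT, 3.992 and 3.57 in siUHRF1 and 3.611 and 4.045 in siCONT + TSA, and all of these are surrogate values that the scanner software set because the spot did not exceed its background. In siUHRF1 + TSA the signals were 22.47, well above background, and 12.4, which was not, and neither was a surrogate. With 5-aza-dC the signal was 142.3. The arrays of siUHRF1 + TSA thus lay above all other siRNA arrays.

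GATA5 did not enter the test on the siRNA arrays, since no group had both arrays well above background. The dimmest signal that counted as above background was 12.93 to 14.67 where siRNA was used and 25.8 with 5-aza-dC. Since replicate 2 of siUHRF1 + TSA read less than all of these, no fold change of GATA5 between siRNA groups is given. None of GATA1, GATA2, GATA3 or GATA5, the 4 member probes below background on both siCONT arrays, was well above background on both siUHRF1 + TSA arrays, against 3.12% of the 26973 probes that were below it.

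GATA2, which maintains blood stem cells, stayed below background on all 8 siRNA arrays but not at 1 level. Its signal was 3.414 and 3.634 in siCONT and 3.414 and 3.826 in siCONT + TSA, all surrogate values. It was 13.96 and 9.101 in siUHRF1 and 9.143 and 8.231 in siUHRF1 + TSA, where no surrogate was used. The 4 UHRF1-depleted arrays thus lay above the other four, but no fold change is given because both sides were below background.

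GATA3, the T cell factor, read 3.124 and 3.359 in siCONT, 3.346 and 3.51 in siUHRF1, 3.014 and 3.386 in siCONT + TSA and 3.893 and 3.255 in siUHRF1 + TSA, with overlapping groups and surrogate values on 6 of 8 arrays. GATA1, the red cell factor, read 2.563 to 5.929 on the siRNA arrays, 7 of them surrogate values, and 7.919 with 5-aza-dC. Neither was well above background on a siRNA array, and no difference between them was detectable at this signal.

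On the 5-aza-dC array the silent members GATA2, GATA3 and GATA5 read 179.2, 184.3 and 142.3, all well above background. A lower limit is given for a gene below background in siCONT by setting each siCONT array to the dimmest signal that counted as above background on it, or to the probe's own signal where that was higher. By this limit GATA2, GATA3 and GATA5 were at least 4.36-fold, at least 4.49-fold and at least 3.46-fold higher than in siCONT relative to the 75th percentile. With spike-in scaling the limits were only 1.35-fold, 1.39-fold and 1.07-fold. Normexp background correction gave fitted log2 fold changes of 0.61, 0.85 and 0.34 for GATA2, GATA3 and GATA5. Each is smaller than the gene's limit relative to the 75th percentile. The 3 probes passed the filter through the 5-aza-dC array alone and had surrogate values in siCONT, so no p-value is given for them. Of the 4 member probes below background on both siCONT arrays, 3 were well above it with 5-aza-dC, against 14.5% of 26973 probes. With spike-in scaling the median log2 fold change of all probes was -1.68.

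The members already active in siCONT did not rise relative to the rest of the array. GATA6 had a log2 fold change of -0.065 with 5-aza-dC (95% interval -0.35 to 0.22, adjusted p = 0.669 from limma), and its sign varied with the scaling, from 0.047 with a shift by the median of always-detected probes to -1.76 with spike-in scaling. The GATA4 probes at bases 257 and 2441 had log2 fold changes of -1.82 and -1.17 (limma adjusted p = 0.00185 and 0.000636), although the unscaled signals were 54.53 and 43.71, close to those of siCONT. Those at bases 1823 and 2978 read 60.31 and 149.4, with log2 fold changes of 0.41 (adjusted p = 0.514) and -0.31 (adjusted p = 0.309), and the first turned to -0.67 with normexp and -1.28 with spike-in scaling. In all, limma called 5 of the 8 GATA probes tested with 5-aza-dC, against 48.9% of 27142 probes (56.2% at an unadjusted p below 0.05), and the 3 higher ones were those that passed the filter through this array. The methods' t-test called 5 without adjustment (40.8% of all probes) and 0 with it (0.00368%). The limma fit takes the spread of 5-aza-dC, which has 1 array, from the siRNA groups. The methods' test had only the siCONT arrays to take a spread from. For GATA2, GATA3 and GATA5 the values on those arrays are surrogates, so nothing is read from its counts here.

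The antisense RNA GATA3-AS1, which starts beside GATA3 on the other strand, was on the array as 4 probes under its older name FLJ45983, 2 of which RefSeq names. The brighter of these read 3.678 and 4.031 in siCONT, 3.911 and 4.197 in siUHRF1, 3.569 and 4.02 in siCONT + TSA, 13.66 and 21.36 in siUHRF1 + TSA and 270.2 with 5-aza-dC. It was above background on 1 siUHRF1 + TSA array and on the 5-aza-dC array, where it was at least 6.57-fold higher than in siCONT (2.03-fold with spike-in scaling). The second probe read 53.87 with 5-aza-dC, at least 1.31-fold higher, and spike-in scaling left no such limit. It was below background on all 8 siRNA arrays. The 2 probes without a RefSeq name stayed below background on all 9 arrays. GATA3 and GATA3-AS1 were thus both detected on the 5-aza-dC array, while on the siUHRF1 + TSA array with GATA3-AS1 above background GATA3 was a surrogate value.

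Other genes of the GATA network were counted by gene name, each by its brightest probe. In siUHRF1 against siCONT limma called 0.617% of 17838 gene names higher and 0.0336% lower, in siCONT + TSA 6.99% and 3.86%, in siUHRF1 + TSA 16.1% and 8.08%, and with 5-aza-dC 25.5% and 23.9% of 20486. At an unadjusted p below 0.05, 8.98% of gene names passed in siUHRF1. Lists with few members tested can differ from these shares by single genes. Genes given with a lower limit were below background on the other side and, as for the GATA factors, have no p-value here. Calls with 5-aza-dC rest on 1 array with a slide and scan of its own and on a spread taken from the siRNA groups. Genes that only this array brought through the filter are counted apart. BMP2, HBM and DMRT1 are not counted apart, as they also passed through UHRF1-depleted groups, though they were below background in siCONT. Spike-in scaling lowered the log2 changes with 5-aza-dC by about as much as the median of all probes.

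Among cofactors and partners, 1 of the 15 tested rose in siUHRF1, 1 in siCONT + TSA, and 4 rose and 1 fell in siUHRF1 + TSA, where 1 of the 4, BMP2, passed the filter through that group alone. At an unadjusted p below 0.05 limma passed 3 of the 15 in siUHRF1, against 8.98% of gene names. The median log2 fold change in the combination was 0.11, against 0.067 for all genes. BMP2, a signal that induces GATA factors in heart, read 3.581 and 3.921 in siCONT, 16.57 and 17.68 in siUHRF1, 3.471 and 3.836 in siCONT + TSA and 34.77 and 32.64 in siUHRF1 + TSA. It was the gene counted as higher in siUHRF1, where 1 of 2 arrays was above background. It was at least 2.42-fold higher in the combination. With 5-aza-dC BMP2 read 503.3, at least 12.2-fold higher than in siCONT relative to the 75th percentile. That limit was not computed with spike-in scaling. TCF3, the partner of TAL1 in GATA1 complexes, rose by 0.61 with TSA alone (adjusted p = 0.0266 from limma) and by 0.80 in the combination (adjusted p = 0.00573). FOXA1, a pioneer factor that acts beside GATA factors, read 78.48 and 78.57 in siCONT and 45.35 and 48.35 in siUHRF1 + TSA and had a log2 fold change of -0.72 (adjusted p = 0.0197), a fall. With spike-in scaling neither the rise of TCF3 with TSA alone (0.42, adjusted p = 0.142 from limma) nor the fall of FOXA1 (-0.88, adjusted p = 0.073 from limma) was called, and the list had 2 genes called higher and 1 lower in the combination and 0 and 1 with TSA alone. With 5-aza-dC, 8 of 23 cofactors were called higher and 4 lower. But 8 of the 23 passed the filter through this array alone, 5 of them among those called higher. Of the 15 others 3 were higher, among them BMP2, and 4 lower. With spike-in scaling the balance turned, to 4 of 23 higher and 14 lower. The 1 of the 15 then higher was BMP2, which was below background in siCONT. Among the 5 were BMP4, at least 12.8-fold higher (3.95-fold with spike-in scaling), and LMO2, a bridge protein of GATA1 complexes, at least 4.86-fold higher (1.5-fold with spike-in scaling).

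Of 9 proteins with a GATA-type zinc finger outside the family, all were tested. In siUHRF1 limma called 0 of 9, also at an unadjusted p below 0.05, and 1 rose in siCONT + TSA and 1 in siUHRF1 + TSA. This was GATAD2B, a subunit of the NuRD deacetylase complex, which read 153.8 and 152.6 in siCONT, 214.5 and 221.1 in siCONT + TSA and 220.7 and 228.7 in siUHRF1 + TSA. It rose by 0.69 with TSA alone and by 0.58 in the combination (adjusted p = 0.0227 and 0.0188 from limma). Neither rise of GATAD2B was called with spike-in scaling. With 5-aza-dC, 2 of 9 were called higher and 3 lower, and with spike-in scaling 0 and 8. RERE, a corepressor, had a log2 fold change of 2.51 there (0.82 with spike-in scaling, not called) and TRPS1, a repressor at GATA motifs, one of -1.31 (-3.01 with spike-in scaling).

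Genes known as targets of GATA1 or GATA2 in red cells and platelets included HBA2, an alpha globin gene and the 1 gene of the list called with TSA alone. HBA2 read 175.1 and 179.9 in siCONT, 327 and 419.4 in siUHRF1, 3063 and 3102 in siCONT + TSA, 4821 and 6134 in siUHRF1 + TSA and 28130 with 5-aza-dC. It rose by 4.97 on the log2 scale in the combination (adjusted p = 0.000128 from limma). GATA1 and GATA2 were below background on those arrays, and whether either acted on HBA2 was not tested. Of 12 such genes tested, limma called 0 in siUHRF1 (1 at an unadjusted p below 0.05), 1 rose in siCONT + TSA, and 4 rose and 1 fell in siUHRF1 + TSA, with a median of 0.47. With spike-in scaling HBA2 was called higher in siUHRF1 too, at 0.96 (adjusted p = 0.0499 from limma). The combination then had 4 genes of the list called higher and 0 lower. HBM, another globin gene, was at least 1.89-fold higher in the combination, and GP1BB, a platelet receptor subunit, rose by 0.80 (adjusted p = 0.0224 from limma). With 5-aza-dC, 7 of 15 were called higher and 2 lower, but HBE1, GP1BA and NFE2 passed the filter through this array alone, and of the 12 others 4 were higher and 2 lower. With spike-in scaling the balance turned, to 4 of 15 higher and 7 lower. Among the 4 of the 12 were HBM, at least 19.2-fold higher (5.92-fold with spike-in scaling), and HBA2, with a log2 fold change of 5.77 (4.08 with spike-in scaling).

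Of 5 tested genes known as GATA3 targets, TH and KRT18 rose in the combination by 1.22 and 0.81, and XBP1 fell by 1.16 (adjusted p = 0.00549, 0.00868 and 0.00151 from limma). XBP1, a factor of the unfolded protein response, read 11850 and 12030 in siCONT, 5561 and 5705 in siCONT + TSA and 5658 and 4826 in siUHRF1 + TSA, so the TSA arrays lay apart, and it was the 1 gene of this list called in siCONT + TSA. With 5-aza-dC, 1 was called higher and 2 lower, and with spike-in scaling 0 and 4. The log2 fold change there was 1.44 for TH, which turned to -0.25 with spike-in scaling, and -1.10 for XBP1 (-2.80 with spike-in scaling).

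Of the lists of targets of GATA4, GATA5 and GATA6, each had 1 gene called higher and none lower in the combination, and with so few genes tested the counts are not read against the shares of all gene names. Of 5 cardiac genes tested, TNNI3, a troponin, rose by 0.60 (adjusted p = 0.0395 from limma). Of 8 intestinal and endoderm genes, LAMA1, a laminin chain, rose by 1.495 (adjusted p = 0.0387), with 1528 in siUHRF1 + TSA replicate 1 and 727 in replicate 2. Of 3 gonadal and steroid genes, DMRT1, a testis factor, was at least 1.51-fold higher. Of these, DMRT1 passed the filter through the combination alone, and TNNI3 and LAMA1 were not called with spike-in scaling. In siUHRF1 limma called 0 genes of these lists and 0 GATA3 targets, also at an unadjusted p below 0.05, and in siCONT + TSA DMRT1 was called with both groups below background. With 5-aza-dC the counts were 2 of 5 cardiac genes higher and 1 lower, 3 of 11 intestinal and endoderm genes higher and 2 lower, and 4 of 6 gonadal and steroid genes higher and none lower. Of the genes called higher, ATP4A among the intestinal and endoderm genes and INHBB and HSD3B2 among the gonadal and steroid genes passed the filter through this array alone. Called or not, 3 of the 6 gonadal and steroid genes passed that way. Of the other 3 gonadal and steroid genes 2 were higher, among them DMRT1. With spike-in scaling none of the genes of these 3 lists that passed otherwise was called higher. With that scaling the counts were 0 higher and 4 lower for the cardiac genes, 0 and 5 for the intestinal and endoderm genes and 1 and 1 for the gonadal and steroid genes. CCND2, a cyclin, had a log2 fold change of 0.74 with 5-aza-dC, which turned to -0.95 with spike-in scaling. NPPA, a natriuretic peptide of the heart, had one of -0.72 (-2.41 with spike-in scaling) and COL4A2, a collagen chain, one of 1.96 (0.27 with spike-in scaling, not called). INHBB, an inhibin subunit, was at least 10.6-fold higher there (3.28-fold with spike-in scaling).

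**Figure D3:**
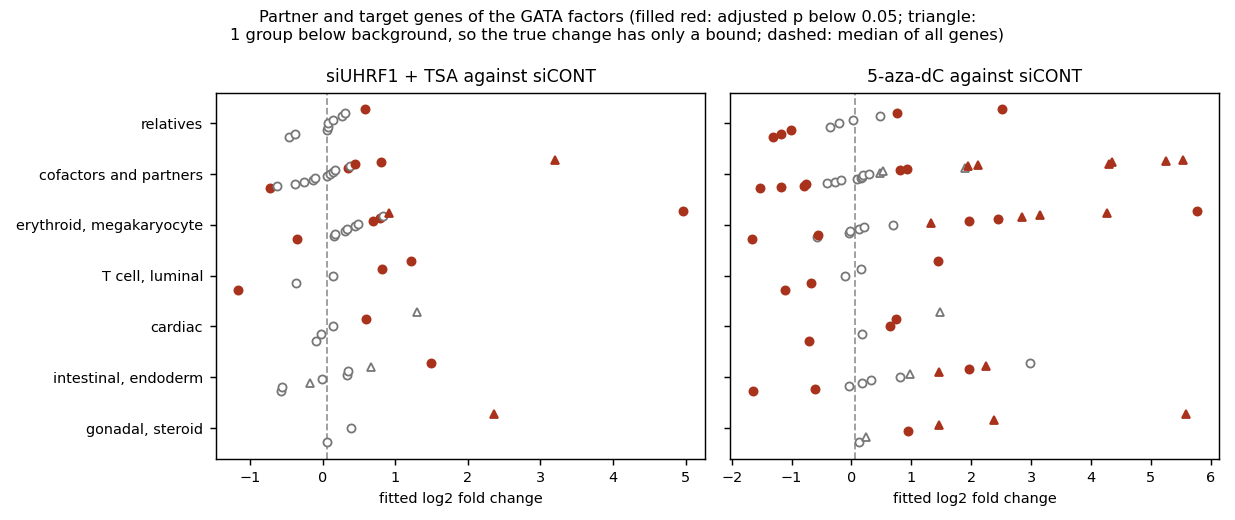
Fitted log2 fold change (horizontal axis) of each tested gene of 7 lists around the GATA factors (vertical axis) in siUHRF1 + TSA and with 5-aza-dC, each against siCONT, with red fill for an adjusted p below 0.05 and triangles where 1 group was below background on all its arrays. HBA2 at 4.97 lies farthest right in the left panel, and the dashed line marks the median of all genes at 0.067 there and at 0.056 in the right panel.

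The genes whose pattern over the 8 siRNA arrays was most like each detected member were named by Pearson's correlation among 12896 or 12897 gene names. As a description, since these arrays share slide, scan and group structure, EP400P1, PRR5L and ZBTB8A lay closest to GATA6 (r = 0.956, 0.955 and 0.945). NEU4, NAA20 and ARHGDIB lay closest to the GATA4 probe at base 2441 (r = 0.991, 0.989 and 0.986). ELP4 and GNE lay close to the probe at base 257 (r = 0.976 and 0.969), and PTPRC, ANKRD20A11P and LAMB1 to the probe at base 2978 (r = 0.954, 0.913 and 0.884). The probes of GATA4 thus had different nearest genes.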

How the data were processed

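Total RNA of RKO cells was hybridized in 1 colour to SurePrint G3 Human GE v2 arrays. Spots were read by the authors with Feature Extraction 10.7.3.1, per the file headers, and the deposited files hold linear intensities after background subtraction and detrending, with a surrogate value for spots at background and no normalization between arrays. The deposited value table holds the same intensities, rounded.

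Of 62976 spots on an array, 4259 are controls. From each log2 signal the 75th percentile of its array was taken. Outlier spots were dropped and repeated spots averaged per probe. To be tested, a probe had to be well above background throughout 1 group or more. The fit was made with limma 3.58.1 (R 4.3.3) to the 8 siRNA arrays, or to all 9 for 5-aza-dC, where the lone sample is taken to have the spread of the rest. The threshold was an adjusted p (Benjamini-Hochberg) below 0.05. A gene name with several probes was represented by the brightest, and 28174 probes were named through RefSeq. The scripts were tested on simulated data.

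Where a group was below background on all its arrays, the fold change is a lower limit, with each such array at the higher of its lowest signal above background and the probe's own signal.

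Members, gene lists and naming rule were chosen with earlier results of these data known. In each list the named genes are called ones whose treated and control arrays did not overlap, the 3 with the largest change in the combination and 2 in the other comparisons with siCONT, and LMO2, HBE1, GP1BA and NFE2 were added after their values were seen. Of the antisense list, the locus annotated as LINC01003 in RefSeq is not described, because it is not at a GATA gene.

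Among the alternatives, those of scale were normexp with an offset of 50, quantile normalization, the median of always-detected probes and the deposited table, and those of selection were no filter, a stricter filter, kept outlier spots, only the arrays compared and the loss of each array. Those of the model were a replicate block, a trended and robust prior and the methods' t-test. Scaling on the spike-in probes was added after seeing the data. A few marker and correlated genes are not reported here.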

Additional observations from a re-analysis of the deposited data

How the results depend on the processing

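The counts of GATA probes called rested on few probes and moved with the processing. Without the filter on dim probes, limma called 1 in siUHRF1 against siCONT (GATA2), 3 in siUHRF1 + TSA against siCONT, 2 against siCONT + TSA (GATA2 and GATA5) and 2 against siUHRF1, with surrogate values in the dim groups, so nothing is read from these calls. In siUHRF1 + TSA against siCONT, where 2 were called, the count was 0 with normexp background correction, with spike-in scaling and with the methods' t-test after adjustment, and 1 with a replicate block and with only the arrays compared. In siUHRF1 + TSA against siUHRF1, where 1 was called, it was 0 with normexp, with only the arrays compared, with a trended and robust prior and with the adjusted t-test, and 2 with the unadjusted t-test, which also gave 2 against siCONT + TSA. With spike-in scaling the count there was again 1, but it was the GATA4 probe at base 257 in place of base 2441. With 5-aza-dC, where 5 were called, it was 2 with normexp and 2 with the stricter filter, which drops the probes below background in siCONT, 8 with spike-in scaling and 0 with the adjusted t-test. With each array left out in turn on a fixed set of probes, the counts ranged from 0 to 2 in siUHRF1 + TSA against siCONT and from 0 to 1 against siUHRF1. The cause of these changes was not tested.

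Of the fold changes of single GATA probes with an unadjusted p below 0.05, 1 reversed: the GATA4 probe at base 2441 in siUHRF1 + TSA against siCONT + TSA was -0.23 with normexp. Above that p other signs turned too, as for the probe at base 2978 in siUHRF1 + TSA against siCONT, at 0.055, which was -0.063 with quantile normalization and -0.11 with spike-in scaling, and for GATA6 and base 1823 with 5-aza-dC. The direction of the fall of GATA6 in the combination held in all 19 alternatives, and its call in 8. Same-numbered replicates deviated together only in siUHRF1 and siUHRF1 + TSA, which share an siRNA (correlation 0.466), and not between siCONT and siUHRF1 (-0.007). The main fit left this pairing out, also where siUHRF1 + TSA was compared with siUHRF1. With the replicate block, GATA6 in the combination had an adjusted p of 0.0551 from limma, and the block moved no other count by over 1.5 times. Slide and scan as a block were not run: they are the same on every siRNA array.

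Signal over background limits GATA1, GATA2, GATA3 and GATA5 on the siRNA arrays, where most of their values are surrogates.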
